A study of Mus musculus with 36 samples.

Results

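The 31 genes described here make cholesterol, sense it, move it within the cell or carry it out of the cell. They were listed by their role in the pathway, and a probe set was taken where the probe annotation gave it 1 gene on the list and its log2 intensity was above 6.64 on at least 9 of the 36 arrays. By this rule 29 of the 31 genes were measured, with 53 of their 65 probe sets, out of 13224 genes and 27212 probe sets in the whole series. Acat2 and Soat1 had no probe set assigned to them alone and were not analysed here. Each gene is represented by its probe set of highest mean signal, and its other probe sets are given for the results described below.

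The arrays compared the effect of genetic background on the response of the striatum to morphine in adult male mice 8 to 10 weeks old, from 4 inbred strains: SWR/J, DBA/2J, C57BL/6J and 129P3/J. Mice of the chronic morphine groups were injected subcutaneously 3 times a day for 4 days, at 10 mg/kg, then 20 mg/kg and then 40 mg/kg for the last 2 of them, and received a final 40 mg/kg on day 5. Acute morphine groups were given saline on that schedule and then 20 mg/kg of morphine on day 5, and saline groups were given saline throughout. Tissue of the caudate putamen and nucleus accumbens was dissected 4 hours after the last injection, so that the groups differ in the last dose as well as in the days of exposure. Each of the 12 groups has 3 arrays and each array holds the pooled RNA of 3 mice, so p-values measure the spread between pools. Values are linear intensities, and differences are on the log2 scale with 24 residual degrees of freedom. A contrast was called at an adjusted p under 0.05 and an F-test at an adjusted p under 0.01, both over the 27212 probe sets in limma.

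Neurons and glia make nearly all of the cholesterol of the brain themselves, because lipoproteins of the blood do not cross the blood-brain barrier, and much of it lies in myelin. Acetyl units are joined and reduced to mevalonate, turned into isoprenoids, condensed to squalene and closed to lanosterol, which is then trimmed in many steps to cholesterol. When the endoplasmic reticulum is short of sterol, the escort Scap carries the precursors of the transcription factors Srebf1 and Srebf2 to the Golgi for release, and Insig1 and Insig2 hold them back when sterol is plentiful. Sterol-regulated promoters of this kind carry sterol elements, often beside CCAAT boxes that bind the factor NF-Y.

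The promoters of Hmgcs1, Idi1 and Cyp51 are shown because these are the members called within a single strain. Each is the 250 bases before the gene's start in RefSeq on GRCm38.p6, written on the gene's strand from 5′ to 3′, with the capitals marking CCAAT boxes on either strand and the sterol element core. They lie at chr13:119690101-119690350 (+ strand), chr13:8885356-8885605 (+ strand) and chr5:4104698-4104947 (- strand).
Hmgcs1: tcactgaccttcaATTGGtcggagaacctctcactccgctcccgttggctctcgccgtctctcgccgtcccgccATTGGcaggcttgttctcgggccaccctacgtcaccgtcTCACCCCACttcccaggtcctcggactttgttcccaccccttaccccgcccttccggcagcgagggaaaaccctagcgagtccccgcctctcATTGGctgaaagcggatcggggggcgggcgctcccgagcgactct
Idi1: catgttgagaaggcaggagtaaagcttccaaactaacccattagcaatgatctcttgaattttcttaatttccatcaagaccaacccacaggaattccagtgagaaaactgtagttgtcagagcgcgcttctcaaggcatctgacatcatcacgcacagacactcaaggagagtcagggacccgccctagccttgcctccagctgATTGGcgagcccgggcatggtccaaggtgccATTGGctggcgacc
Cyp51: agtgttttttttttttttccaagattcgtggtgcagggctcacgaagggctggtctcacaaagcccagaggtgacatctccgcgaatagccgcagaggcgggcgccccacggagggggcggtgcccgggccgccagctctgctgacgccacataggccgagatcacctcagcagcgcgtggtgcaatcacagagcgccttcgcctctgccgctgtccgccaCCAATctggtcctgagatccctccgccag
Hmgcs1 had 3 boxes and 1 sterol element core, which starts 137 bases before the gene's start, Idi1 had 2 boxes and Cyp51 had 1. Over the whole window of 250 bases before to 50 after the start, CCAAT was found on either strand in 21 of the 25 listed genes that have an entry (84%), against 41.1% of all 27025 genes. Counted by promoter the shares were 62.9% of 35 and 37.4% of 32851. Among the synthesis genes 15 of 16 held the box (93.8%), and among the genes of sterol control, transport and efflux 6 of 9 (66.7%). The sterol element core, spelled TCACNCCAC and searched on both strands, was found in 1 of the 35 promoters, against 1.24% of all. The CCAAT and core motifs share no bases in the promoters printed, and a match describes the letters of the window and not a bound site.

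Array medians were 119 to 133 intensity units. The 7 measured markers of medium spiny neurons, the main cell type of the striatum, had mean log2 intensities of 9.03 to 12.17, well above the detection level. On the C57BL/6J saline array 1 the difference between the 3′ and 5′ Gapdh control probe sets was 0.72, against -0.11 to 0.12 on the other arrays, and the saline arrays 129P3/J 3 and DBA/2J 3 had poly-A control scores of -3.58 and -3.47, against -0.86 or more on the rest. Deviations from the group means were shared between strains by arrays with the same treatment and replicate number, at a mean r of 0.26 over 54 pairs drawn from the same 36 arrays. The score of the hybridization controls followed these sets in part. In the acute groups it was -0.43 to -0.28 over the 4 strains for number 1, 0.09 to 0.66 for number 2 and -0.50 to -0.42 for number 3. For numbers 1, 2 and 3 the saline groups had -0.36 to -0.12, -0.24 to 0.14 and 0.08 to 0.55. The chronic groups had 0.24 to 0.35, -0.10 to 0.09 and 0.12 to 0.34, so several sets overlapped. The study describes the 3 arrays of a group as biologic replicates. The labels only number them and do not say which arrays were processed together. For this reason a second fit of each contrast took the 9 sets of treatment and number as a random block, and its adjusted p or its count of calls is given beside the treatment calls over all strains.

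After chronic morphine 5 genes of cholesterol synthesis were lower, and the exporter Abca1 and the regulator Srebf1 were higher, each by a modest amount. Over all strains, 12 arrays against 12, the 5 lower genes were 17.2% of the 29 members, against 4.39% of all genes tested, and the 2 higher ones 6.9%, against 1.35%. The 5 that were lower, Hmgcs1, Idi1, Fdps, Sqle and Cyp51, are all among the 18 measured synthesis genes (27.8%), and 14 of these 18 had a negative difference. The median difference was -0.17 over the synthesis genes and -0.06 over all 29 members, against -0.02 over all genes tested. In pooled tissue, fewer cells of a type and less RNA per cell cannot be told apart. With the random block none of the 7 members was called, with adjusted p of 0.095 to 0.276. Over all 13224 genes the block gave 63 calls, against 759 without it, so the loss was not particular to the members.

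**Figure D1:**
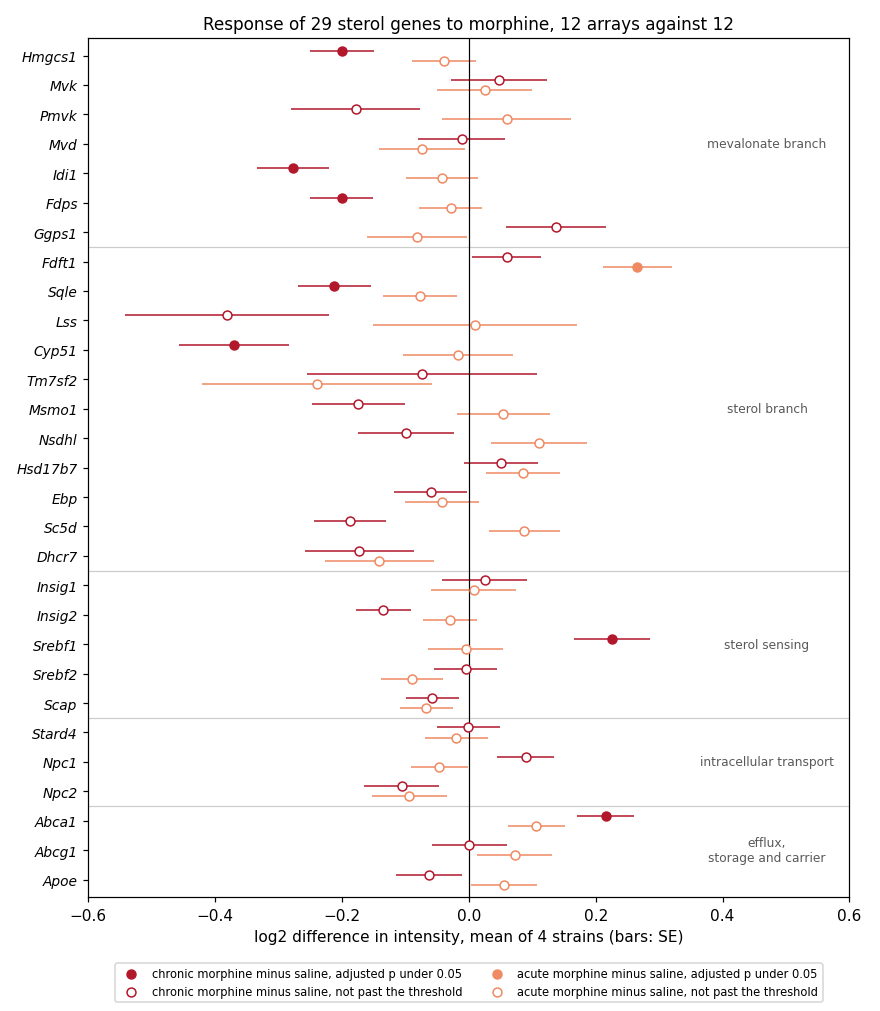
Log2 differences of the 29 measured genes after chronic (red) and acute (orange) morphine, each against saline, as means over 4 strains with their SE, with genes in the order of the pathway. Filled points passed an adjusted p under 0.05: 5 synthesis genes on the negative side and Srebf1 and Abca1 on the positive side for chronic morphine, and Fdft1 alone for acute morphine.

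In the mevalonate branch, Hmgcs1, the cytosolic synthase that makes HMG-CoA, had 1751 to 2353 intensity units in the 12 chronic arrays (median 2009), against 1915 to 3008 in the 12 saline arrays (median 2282). The groups overlapped, with 3 chronic arrays under the lowest saline array, and the mean was lower in 4 of 4 strains. The difference was -0.20 (SE 0.051; adjusted p = 0.021; 0.248 with the random block), and all 4 probe sets of the gene were lower, by 0.20 to 0.24, 2 of them called. The second one called had an adjusted p of 0.324 with the random block.

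Idi1, the isomerase that activates the isoprene unit, had 335 to 529 (median 438) in the chronic arrays and 407 to 728 (median 493) in the saline arrays. Of the 12 chronic arrays 4 lay under every saline array, and the mean was again lower in 4 of 4 strains. The difference was -0.28 (SE 0.057; adjusted p = 0.00524; 0.132 with the random block), and a second probe set was lower by 0.54 (SE 0.15; adjusted p = 0.0375). With the random block the adjusted p of that second probe set was 0.319.

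Fdps, which joins isoprene units to farnesyl pyrophosphate, had 312 to 509.7 (median 452) in the chronic arrays and 449 to 553 (median 488) in the saline arrays. Its difference was -0.20 (SE 0.05; adjusted p = 0.0189; 0.275 with the random block). In SWR/J it had 354, 336 and 312 in the chronic arrays, against 514, 458 and 449 in the saline arrays, which did not overlap. In the other strains the arrays of the 2 treatments overlapped.

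The other genes of this branch did not pass the test after chronic morphine. Pmvk, the second mevalonate kinase, had -0.18 (SE 0.10; adjusted p = 0.311), and the kinase Mvk and the decarboxylase Mvd had 0.05 and -0.01, with 95% intervals of -0.11 to 0.20 and -0.15 to 0.13. Ggps1, which makes geranylgeranyl pyrophosphate for protein prenylation rather than for sterols, had 0.14 (SE 0.079; adjusted p = 0.316), and its other 3 probe sets -0.03 to 0.04.

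In the sterol branch, Sqle, which epoxidizes squalene, had 351 to 592 (median 448) in the chronic arrays and 416 to 676 (median 529) in the saline arrays, a difference of -0.21 (SE 0.058; adjusted p = 0.0313; 0.257 with the random block). Cyp51, the lanosterol demethylase, had 177 to 332 (median 242) in the chronic arrays and 212 to 501 (median 275) in the saline arrays, a difference of -0.37 (SE 0.086; adjusted p = 0.0135; 0.162 with the random block). Cyp51 had the larger difference of the 2, and in both the mean was lower in 4 of 4 strains while single arrays of the groups overlapped.

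Of the 5 lower genes, Sqle had the largest adjusted p and was the one whose call was lost by leaving out single arrays. It was not called without any 1 of 11 arrays: 129P3/J saline 1 and chronic 1, C57BL/6J saline 2, chronic 1 and chronic 3, DBA/2J saline 1, chronic 1 and chronic 3, and SWR/J saline 1, chronic 1 and chronic 3, with adjusted p of 0.0531 to 0.0675. Without both saline arrays of low poly-A score its adjusted p was 0.0553.

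Sc5d, the sterol C5-desaturase, stood just outside the threshold, with a difference of -0.19 (SE 0.057; adjusted p = 0.0527) and means lower in 4 of 4 strains. Its chronic arrays had 206 to 318 (median 284) and its saline arrays 271 to 349 (median 317), and its other 2 probe sets had -0.05 and -0.10. The study named this gene as lower after chronic morphine within a single strain, not over all strains. The value over all strains includes those same arrays, so it is not independent evidence. Within that strain Sc5d was not called here. Lss, which closes squalene epoxide to lanosterol, had -0.38 with a wide error (SE 0.16; adjusted p = 0.163) and probe sets that disagreed, at -0.12 and 0.20. Msmo1 and Dhcr7, which act early and last in the trimming of lanosterol, both had -0.17, with adjusted p of 0.16 and 0.24, and Fdft1, Tm7sf2, Nsdhl, Hsd17b7 and Ebp had -0.10 to 0.06.

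Both members that were higher after chronic morphine act outside the synthesis chain. Abca1, which exports cholesterol to apolipoproteins, had 784 to 1061 (median 897) in the chronic arrays and 692 to 884 (median 817) in the saline arrays, a difference of 0.22 (SE 0.045; adjusted p = 0.00602; 0.095 with the random block). By strain it had 1042, 1000.4 and 909 in chronic and 862, 751 and 825 in saline SWR/J, and 885, 881 and 885 in chronic and 845, 746 and 809 in saline DBA/2J. It had 1061, 969.7 and 1017 in chronic and 884, 846 and 827 in saline C57BL/6J, and 825, 784 and 846 in chronic and 692, 718 and 742 in saline 129P3/J. In each strain all 3 chronic arrays were above all 3 saline arrays, as for 0.0832% of all genes, and the call held without any 1 array, at adjusted p of up to 0.0141.

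Srebf1, the regulator most tied to fatty acid synthesis, had 572 to 871 (median 719) in the chronic arrays and 480.4 to 735 (median 633) in the saline arrays, a difference of 0.23 (SE 0.06; adjusted p = 0.0281; 0.276 with the random block). The mean was higher in 4 of 4 strains, and 6 of 12 chronic arrays were above every saline array. It was not called without 129P3/J saline 1, 129P3/J chronic 1, C57BL/6J chronic 3 or DBA/2J saline 1, at adjusted p of 0.0531 to 0.0645, nor without both saline arrays of low poly-A score (0.0677).

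The rest of the sensing and transport genes did not pass. Insig2 had -0.14 (SE 0.043; adjusted p = 0.0658), with its other probe sets at -0.29 and -0.10 and means lower in 4 of 4 strains. Srebf2, the regulator most tied to cholesterol synthesis, had -0.01 (95% interval -0.11 to 0.10) by the probe set of highest mean and -0.20 (SE 0.073; adjusted p = 0.104) by the other, in which all 3 chronic arrays were below all 3 saline arrays in 3 of 4 strains. Its 2 probe sets thus disagreed. Insig1 had 0.02 (-0.11 to 0.16) and Scap had -0.06 (-0.14 to 0.03). Among the genes that move cholesterol out of late endosomes and lysosomes, Npc1 had 0.09 and Npc2 -0.11, with adjusted p of 0.246 and 0.299, and the other 2 probe sets of Npc2 had -0.10 and 0.15, with means lower and higher in 4 of 4 strains. The cytosolic carrier Stard4 had 0.00 (-0.10 to 0.10) by the probe set of highest mean and -0.19 (SE 0.067; adjusted p = 0.0893) by the other, which was lower in 4 of 4 strains. The exporter Abcg1 had 0.00 (-0.12 to 0.12), and Apoe, the main apolipoprotein of the brain, had -0.06 (-0.17 to 0.05).

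Over the 29 members, the mean after chronic morphine was lower in 4 of 4 strains for 12 genes, 8 of them synthesis genes, and higher in 4 of 4 for Srebf1 and Abca1. Of all genes tested, 22.6% were lower and 13.8% higher in 4 of 4 strains. The mean centred log2 value of the 18 synthesis genes was -0.23 to 0.06 in the chronic arrays (median -0.08), -0.08 to 0.16 in the acute arrays (median 0.05) and -0.13 to 0.16 in the saline arrays (median 0.05), so the ranges overlapped.

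**Figure D2:**
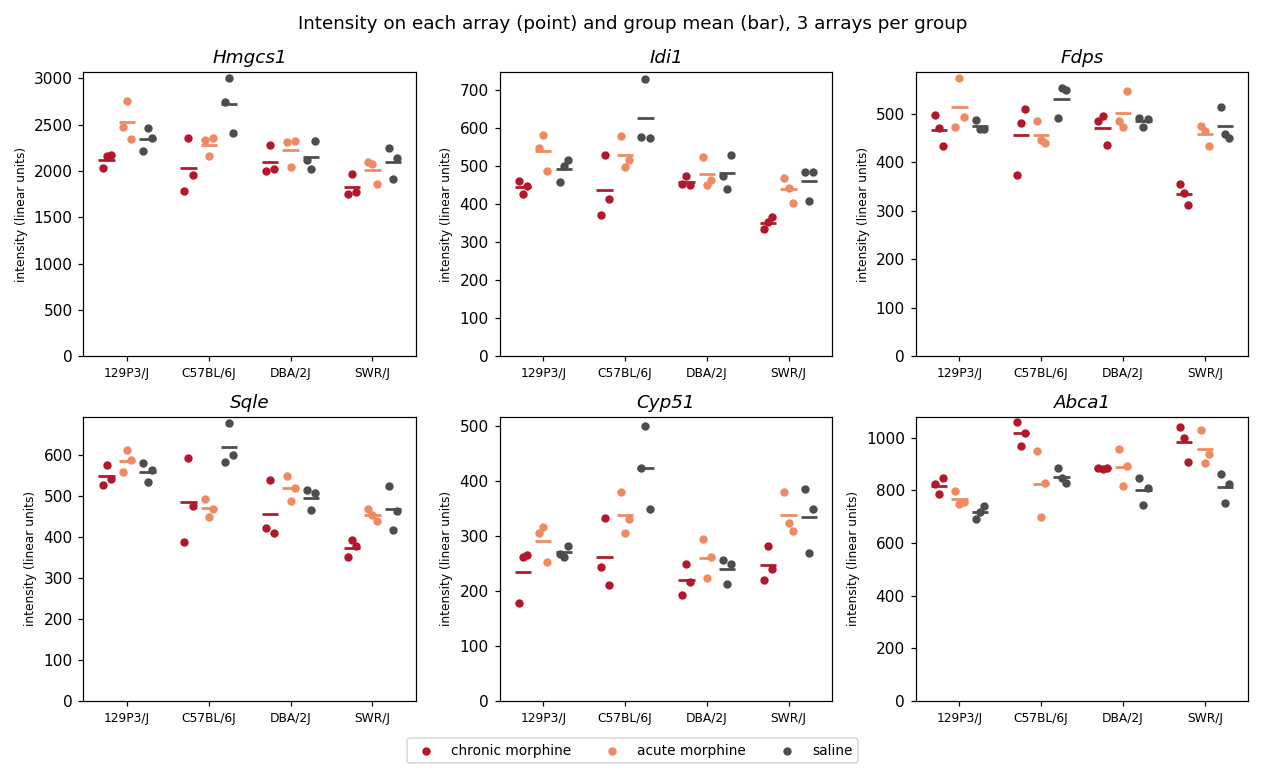
Intensity of 5 synthesis genes and of Abca1 on each of 36 arrays (points, linear units from 0) with group means (bars), for chronic morphine, acute morphine and saline from left to right within each strain. Abca1 is the one in which the 3 chronic arrays are above the 3 saline arrays in each strain, and C57BL/6J saline 2 is the highest array for Hmgcs1, Idi1, Sqle and Cyp51.

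Some markers of glia were lower after chronic morphine too, 10 of the 23 for oligodendrocytes, their precursors and astrocytes, against 4.39% of all genes tested. Of these 10 the random block kept 2, Ugt8a and Olig2. Of the oligodendrocyte markers, 4 of 9 measured were lower after chronic morphine, Ugt8a by 0.60, Ermn by 0.30, Cnp by 0.25 and Mag by 0.23, and their summed intensity was 18526 to 25316 in the chronic arrays, 19882 to 24161 in the acute arrays and 19352 to 29674 in the saline arrays. Of the oligodendrocyte precursor markers 3 of 6 were lower, Olig2 by 0.69, Gpr17 by 0.38 and Olig1 by 0.22, with sums of 3408 to 4500.1 in chronic, 3941 to 4647 in acute and 3887 to 5266 in saline arrays. Of the astrocyte markers 3 of 8 were lower, Aqp4 by 0.30, Gja1 by 0.21 and Slc7a10 by 0.14, with sums of 14502 to 16274, 15061 to 17469 and 14408 to 17924 in chronic, acute and saline arrays.

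Markers of other cells gave fewer calls in number, where 4.39% of all genes tested were lower and 1.35% higher. Of the medium spiny neuron markers 2 of 7 were lower (Drd2 by 0.27 and Rgs9 by 0.18), and of the 4 measured markers of cortical excitatory neurons, which are not part of the striatum, none was called, with a median difference of 0.71 and sums of 986 to 2554, 876 to 1844 and 533 to 1784 in chronic, acute and saline arrays. Of the markers of microglia 0 of 7, of endothelium 1 of 5 (lower), of choroid plexus 0 of 4 and of red blood cells 0 of 2 were called. With the random block neither medium spiny neuron call was kept (adjusted p of 0.0519 and 0.183), nor was the endothelial one (0.347). No marker was at 0, and the lowest mean log2 of a marker in these lists was 6.41. The part of these cells in the sterol results was not tested.

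After acute morphine Fdft1 alone was called, 1 of 29 members (3.45%, against 2.92% of all genes tested), and none was lower (against 1.74%). Fdft1, squalene synthase, commits farnesyl units to sterols. It had 664 to 949 (median 874) in the acute arrays and 639 to 816 (median 705) in the saline arrays, a difference of 0.27 (SE 0.054; adjusted p = 0.00436; 0.0667 with the random block). The mean was higher in 4 of 4 strains, 8 of 12 acute arrays were above every saline array, and a second probe set gave 0.27 (adjusted p = 0.00459). With the random block the adjusted p of the second probe set was 0.0953. In DBA/2J the representative probe set had 869.8, 897 and 813 in the acute arrays, against 666, 639 and 715 in the saline arrays, which did not overlap. The difference there was 0.35 (SE 0.11; adjusted p = 0.0965), and 0.44 for the second probe set (adjusted p = 0.0495).

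The median difference after acute morphine was -0.02 over the members, against 0.02 over all genes tested, and 12 of 29 were positive. The 5 synthesis genes that were lower after chronic morphine had -0.08 to -0.02 after acute morphine, none called, and Abca1 had 0.11 (SE 0.045; adjusted p = 0.183). These comparisons share the saline arrays.

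Chronic against acute morphine gave 8 lower members (27.6%, against 17.5% of all genes tested) and 3 higher ones (10.3%, against 6.08%). The 8 are synthesis genes, of 18 measured (44.4%), namely Hmgcs1, Idi1, Fdps, Fdft1, Cyp51, Msmo1, Nsdhl and Sc5d. This contrast uses the same chronic and acute arrays as those against saline, and it moved many more genes of the whole array than either. With the random block 1 of the 11 calls of representative probe sets was kept, Sc5d. Over all genes the block gave 952 calls in this contrast, against 3122 without it.

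Sc5d had 206 to 318 (median 284) in the chronic arrays and 304 to 391 (median 333) in the acute arrays, and 9 of the 12 chronic arrays were below every acute array. The difference was -0.28 (SE 0.057; adjusted p = 0.00148; 0.0246 with the random block). The other 2 probe sets of the gene had 0.04 and -0.08, with adjusted p of 0.713 and 0.582, and the mean of its 3 probe sets was not called (-0.10; adjusted p = 0.0878). The call thus belongs to 1 probe set of 3.

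**Figure D3:**
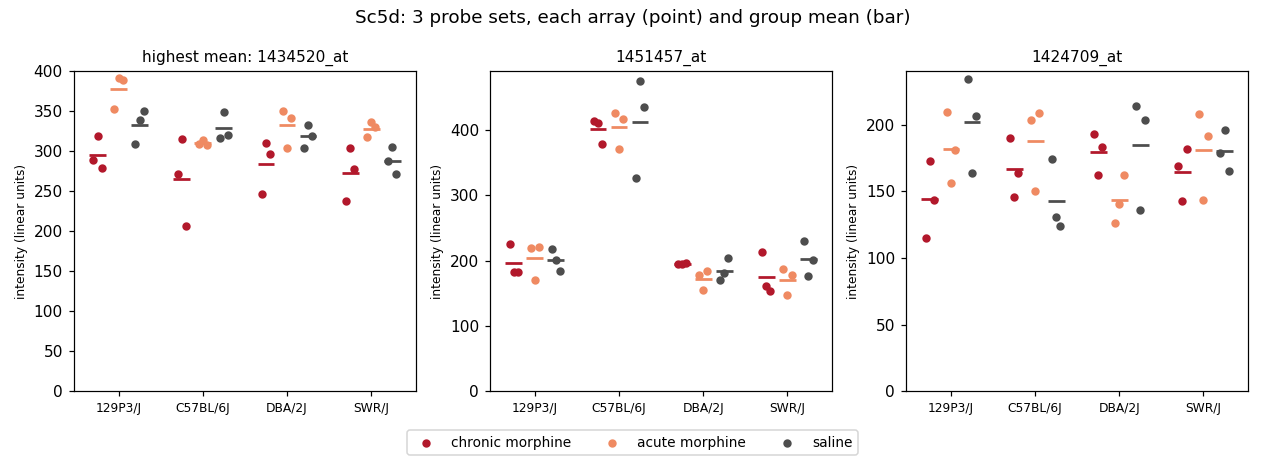
Intensity of Sc5d on each array by each of its 3 probe sets (points, linear units from 0; bars are group means), with chronic morphine, acute morphine and saline from left to right within each strain. The probe set of highest mean had 206 to 318 in the chronic arrays and 304 to 391 in the acute arrays, and the second had 326 to 474 in C57BL/6J, above every array of the other strains.

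Idi1 had a difference of -0.23 between chronic and acute morphine (SE 0.057; adjusted p = 0.0046; 0.063 with the random block), and its second probe set -0.68 (adjusted p = 0.00258; 0.0448 with the random block). Cyp51 had 177 to 332 in the chronic arrays and 223 to 381 in the acute arrays, with medians of 242 and 307, a difference of -0.35 (SE 0.086; adjusted p = 0.00485; 0.0503 with the random block). Fdft1 had 608 to 907 in the chronic arrays (median 715), a difference from the acute arrays of -0.21 (SE 0.054; adjusted p = 0.0079; 0.0614 with the random block). Between chronic morphine and saline Fdft1 had 0.06 (SE 0.054; adjusted p = 0.553).

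Hmgcs1 and Fdps had -0.16 and -0.17 between chronic and acute morphine, with adjusted p of 0.0221 and 0.014, and 0.144 and 0.137 with the random block. Msmo1, a sterol C4-methyl oxidase, had 725 to 1093 in the chronic arrays (median 843) and 852 to 1194 in the acute arrays (median 1019.6), a difference of -0.23 (SE 0.073; adjusted p = 0.0242; 0.18 with the random block). Nsdhl, the dehydrogenase of the same demethylation, had 483 to 632 in the chronic arrays (median 525) and 526 to 837 in the acute arrays (median 614), a difference of -0.21 (SE 0.076; adjusted p = 0.0439; 0.175 with the random block). The ranges overlapped for each of these genes.

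Of the 3 higher members, Srebf1 had 572 to 871 in the chronic arrays and 502 to 767 in the acute arrays, a difference of 0.23 (SE 0.06; adjusted p = 0.00712; 0.076 with the random block). Npc1 had 394 to 576 in the chronic arrays (median 474) and 351 to 491 in the acute arrays (median 436), a difference of 0.14 (SE 0.045; adjusted p = 0.0293; 0.159 with the random block). Ggps1 had 281 to 506 in the chronic arrays (median 334) and 254 to 391 in the acute arrays (median 313), a difference of 0.22 (SE 0.079; adjusted p = 0.0439; 0.185 with the random block). Its other 3 probe sets had 0.01 to 0.04, and their mean with it was not called (adjusted p = 0.389). These last calls were near the threshold: Npc1 was not called without 129P3/J acute 3 or chronic 1, C57BL/6J acute 3 or chronic 3, DBA/2J acute 3 or SWR/J chronic 1 (adjusted p up to 0.068), Nsdhl without any 1 of 16 arrays (up to 0.0865) and Ggps1 without any 1 of 18 (up to 0.0957).

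Taken over the 3 treatments at once, the F-test called 7 of 29 members (24.1%, against 9.25% of all genes tested). These were Idi1, Fdft1, Sc5d, Cyp51, Abca1, Srebf1 and Fdps, and Hmgcs1 was just outside (adjusted p = 0.0115). With the random block 0 were called, the smallest adjusted p being 0.0422 for Fdft1. Without SWR/J chronic 1 the count was 3, and without 129P3/J chronic 1 or DBA/2J chronic 1 it was 4.

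In this contrast 4 genes were called by a probe set other than the one of highest mean alone. Second probe sets of Lss, Insig2 and Stard4 had -0.41, -0.39 and -0.33, with adjusted p of 0.00209, 0.0026 and 0.00117, and one of Npc2 had 0.25 (adjusted p = 0.0105). With the random block their adjusted p were 0.0327, 0.0414 and 0.0168, and 0.0939 for Npc2. Their representative probe sets had -0.39, -0.11, 0.02 and -0.01, none called. Of the 15 members with more than 1 probe set, 7 had all of them on 1 side of 0 in this contrast, 10 after chronic and 6 after acute morphine.

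Within single strains 3 member calls were made, all lower after chronic morphine in C57BL/6J (10.3% of 29, against 1.58% of all genes tested in that strain). Hmgcs1 had 1787, 2353 and 1958 in the chronic arrays, against 2747, 3008 and 2406 in the saline arrays, a difference of -0.42 (SE 0.10; adjusted p = 0.0321). Idi1 had 372, 529 and 414 in the chronic arrays, against 577, 728 and 573 in the saline arrays, a difference of -0.52 (SE 0.11; adjusted p = 0.0218), with its second probe set at -1.22 (adjusted p = 0.0354). Cyp51 had 244, 332 and 211 in the chronic arrays, against 423, 501 and 349 in the saline arrays, a difference of -0.71 (SE 0.17; adjusted p = 0.0341). The random block kept all 3 calls, at adjusted p of 0.0292, 0.0222 and 0.0265. Over all genes the block gave 378 calls in this contrast, against 278 without it, so it was not the stricter test here. By the representative probe sets of all 3 genes every chronic array was below every saline array, and number 2 was the highest array of both groups. The other probe sets of Hmgcs1 had -0.51, -0.61 and -0.25, with adjusted p of 0.0197, 0.0519 and 0.343. In the last of these, saline 1 (696) was below chronic 1 (843) and chronic 2 (939).

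Each of these calls rested on single arrays. Without C57BL/6J saline 2, chronic 1 or chronic 3 none of the 3 was called, and without saline 1, whose Gapdh control stood apart, Hmgcs1 and Cyp51 were not (adjusted p = 0.11 and 0.114). Where the call was lost, the difference was -0.41 to -0.34 for Hmgcs1, -0.49 to -0.41 for Idi1 and -0.70 to -0.56 for Cyp51. Without chronic 2 the number of member calls within strains was 6.

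Oligodendrocyte markers were highest on the same arrays. Their summed intensity was 21593, 25316 and 21389 in the C57BL/6J chronic arrays, against 25179, 29674 and 24193 in the saline arrays, again with number 2 highest in both. Of the 9 markers 1 was called in this strain, as lower, with a median of -0.36 over the list. Of all genes tested 1.58% were lower in this strain. Of the astrocyte markers 2 of 8 were lower, Aqp4 by 0.62 and Gja1 by 0.47, and their sum was 14976 to 16230 in chronic and 16342 to 17924 in saline arrays. Of the precursor markers 2 of 6 were lower, Olig1 by 0.41 and Olig2 by 0.60, with sums of 3450.4 to 4500.1 in chronic and 4651 to 5266 in saline arrays, and of the endothelial markers Tek was lower by 0.49. The sums of astrocyte and precursor markers did not overlap between chronic and saline arrays. The part of these cells in the C57BL/6J result was not tested.

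**Figure D4:**
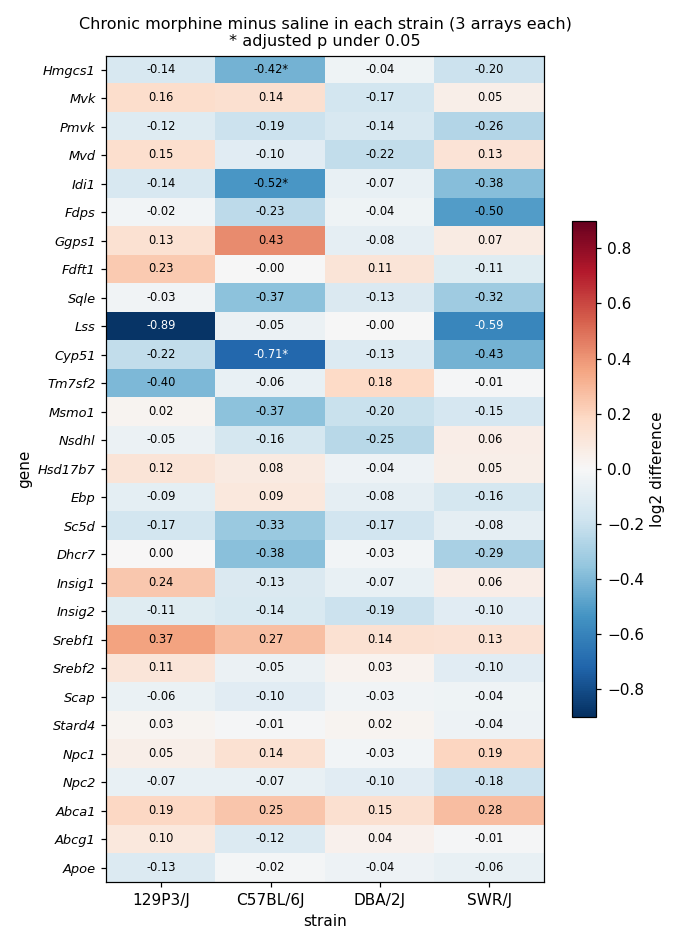
Log2 differences between chronic morphine and saline in each strain (columns, 3 arrays against 3) for the 29 genes (rows in pathway order), with the value in each cell and a star for an adjusted p under 0.05. The 3 stars are Hmgcs1, Idi1 and Cyp51 in C57BL/6J.

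No difference between strains in the response was called. The interaction F-test called 0 of 29 members and 0 of all 13224 genes in limma, with 2 members and 677 genes at an unadjusted p under 0.05. The chronic response of C57BL/6J minus the mean of the other strains was -0.30 for Hmgcs1 (95% interval -0.54 to -0.06), -0.32 for Idi1 (-0.60 to -0.05) and -0.45 for Cyp51 (-0.86 to -0.03), with adjusted p of 0.452, 0.458 and 0.498. The smallest interaction p among members was that of Fdps (0.0092; adjusted 0.91), whose chronic difference was -0.50 in SWR/J (SE 0.099; adjusted p = 0.0668), against -0.04 in DBA/2J, -0.23 in C57BL/6J and -0.02 in 129P3/J.

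Many of these genes differed in signal between the strains. The strain F-test called 9 of 29 members (31%, against 12.4% of all genes tested), and all 9 were called with the random block too. Each block holds 1 array of every strain and so cannot absorb a strain difference, which makes it no further check on these calls. Relative to the mean of the 4 strains, 9 arrays each, SWR/J had 7 lower members (24.1%, against 4.68%) and 2 higher (6.9%, against 4.2%). C57BL/6J had 4 higher members (13.8%, against 6.46%), 129P3/J had 1 higher and 1 lower (against 4.36% and 4.31%) and DBA/2J had 2 lower (6.9%, against 4.49%).

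**Figure D5:**
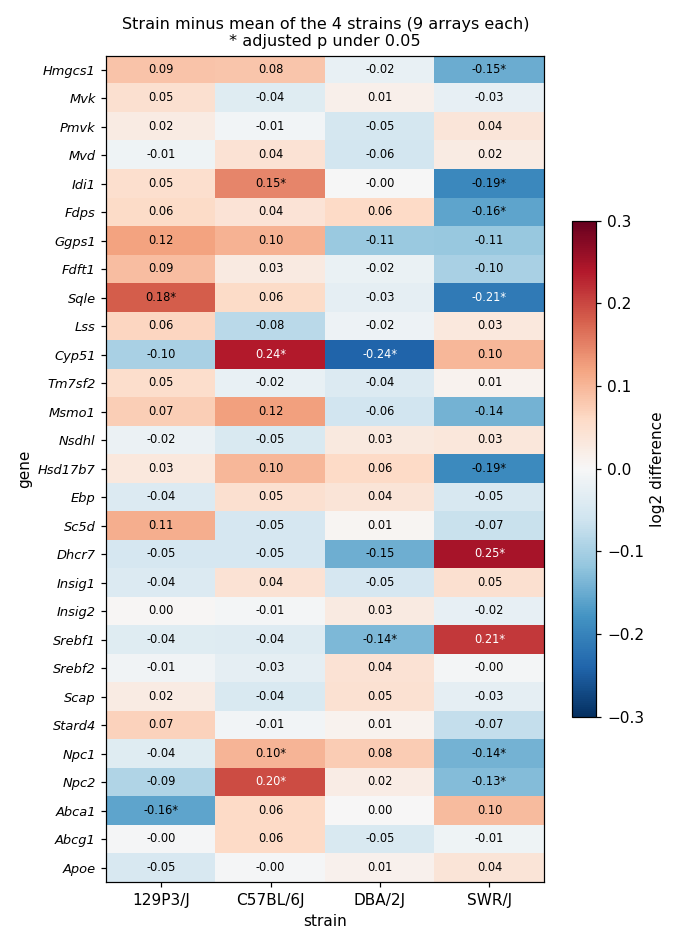
Log2 deviation of each strain from the mean of the 4 strains (columns, 9 arrays each) for the 29 genes (rows in pathway order), with a star for an adjusted p under 0.05. SWR/J has 7 negative and 2 positive starred cells and C57BL/6J 4 positive ones.

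Sqle had the smallest p of the members in this test (adjusted p = 3.06e-04). It had 351 to 525 (median 438) in SWR/J, 408 to 549 (median 508) in DBA/2J, 386 to 676 (median 492) in C57BL/6J and 527 to 612 (median 563) in 129P3/J. SWR/J was below the mean by 0.21 (SE 0.041) and 129P3/J above it by 0.18 (SE 0.041), and every SWR/J array was below every 129P3/J array.

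Idi1 had medians of 407 in SWR/J, 463 in DBA/2J, 529 in C57BL/6J and 487 in 129P3/J, with deviations of 0.15 in C57BL/6J (SE 0.04; adjusted p = 0.015) and -0.19 in SWR/J (SE 0.04; adjusted p = 0.00113). These are values of its representative probe set, and its second probe set was not called by the strain F-test (adjusted p = 0.606). The C57BL/6J deviation of Idi1 was not called in 2 of 13 alternative settings (adjusted p up to 0.352). Npc1 had 351 to 458 in SWR/J, 404 to 515 in DBA/2J, 440.3 to 576 in C57BL/6J and 385 to 480.4 in 129P3/J. Npc2 had 907 to 1231 in SWR/J, 1033 to 1420.3 in DBA/2J, 1117 to 1594 in C57BL/6J and 996 to 1292 in 129P3/J. Both Niemann-Pick genes were above the mean in C57BL/6J, by 0.10 and 0.20, and below it in SWR/J, by 0.14 and 0.13. For Npc2 these are values of its representative probe set. Another Npc2 probe set was called by the strain F-test (adjusted p = 1.76e-08), and the remaining one was not (adjusted p = 0.973). In C57BL/6J, Idi1 was not called without saline 2, acute 1 or chronic 2, and Npc1 without saline 1, saline 3, acute 1 or chronic 3 (adjusted p up to 0.117), and in SWR/J Npc2 was not called without any 1 of 20 arrays (up to 0.141).

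Both members that were higher after chronic morphine had positive deviations in SWR/J. Srebf1 had 678 to 794 in SWR/J, 480.4 to 664 in DBA/2J, 505 to 870.1 in C57BL/6J and 502 to 871 in 129P3/J. It was above the mean by 0.21 in SWR/J (SE 0.042; adjusted p = 6.85e-04) and below it by 0.14 in DBA/2J (adjusted p = 0.0414), where it was not called without any 1 of 19 arrays (up to 0.133). Every SWR/J array was above every DBA/2J array. Abca1 had 751 to 1042 in SWR/J, 746 to 957 in DBA/2J, 697 to 1061 in C57BL/6J and 692 to 846 in 129P3/J, and was below the mean by 0.16 in 129P3/J (SE 0.032; adjusted p = 7.94e-04), with 0.10 in SWR/J just outside (adjusted p = 0.0557).

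Of the other members, Cyp51 was above the mean in C57BL/6J by 0.24 and below it in DBA/2J by 0.24, and Hmgcs1, Fdps and Hsd17b7 were below it in SWR/J by 0.15, 0.16 and 0.19. The probe sets of Hmgcs1 were lowest in SWR/J except 1. That probe set had mean log2 values of 9.60 in SWR/J, 9.34 in DBA/2J, 9.83 in C57BL/6J and 9.45 in 129P3/J. Dhcr7, the last reductase of the chain, was above it in SWR/J by 0.25 (adjusted p = 0.00609). Orders among neighbouring strains were not tested.

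Single probe sets gave larger strain differences than the genes' representatives. A second probe set of Sc5d had 326 to 474 in C57BL/6J, against 147 to 230.2 in SWR/J, 170 to 226 in 129P3/J and 156 to 204 in DBA/2J, a deviation of 0.83 in C57BL/6J (SE 0.05; strain F-test adjusted p = 1.18e-12). The 2 other Sc5d probe sets had -0.05 and -0.05 there, and the one of highest mean had an adjusted p of 0.181. Single probe sets of Hmgcs1 and Ggps1 also stood apart, with 0.28 and 0.23 in C57BL/6J, against 0.03 to 0.08 and 0.06 to 0.11 for the genes' other probe sets.

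Few other genes of sterol metabolism were called after chronic morphine. Of 37 listed, 28 were measured, and after chronic morphine 1 was higher and 1 lower (3.57% each, against 1.35% and 4.39% of all genes tested). Apod, a lipid carrier of glia, had 0.34 (SE 0.065; adjusted p = 0.00346; 0.0504 with the random block), and Cyp7b1, an oxysterol hydroxylase, had -0.23 (SE 0.067; adjusted p = 0.0471; 0.324 with the random block). After acute morphine 3 were higher, Apod by 0.26, Gramd1b by 0.24 and Erlin1 by 0.14, and Vldlr, a lipoprotein receptor, was lower by 0.20 (adjusted p = 0.0434). The study named Vldlr for another contrast, as lower after chronic morphine within a single strain. That contrast shares saline arrays with the acute one, so the results are not independent. Between chronic and acute morphine 5 of 28 were lower (17.9%, close to the 17.5% of all genes tested) and 0 higher. With the random block 0 of the 28 were called in any of these contrasts.

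The 11 genes of fatty acid synthesis, several of them targets of Srebf1, had none called after acute morphine and Elovl6 alone lower after chronic morphine, by 0.27 (SE 0.062; adjusted p = 0.0122; 0.145 with the random block). Between chronic and acute morphine 7 of 11 were lower (63.6%, against 17.5% of all genes tested), among them Elovl5 by 0.33, Acly by 0.28 and Fads1 by 0.23, and 0 were higher. These 3 were called with the random block too, at adjusted p of 0.0138, 0.0279 and 0.0217, and the other 4 were not. Srebf1 itself was higher in that contrast. The median chronic difference of the 11 was -0.10.

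Genes that glucocorticoids induce, which respond to many treatments of a living animal, had larger differences. Of 10 such genes 6 were higher after chronic and 9 after acute morphine, against 1.35% and 2.92% of all genes tested. The median differences of the 10 were 0.42 and 0.72, and with the random block 5 of the 6 and 6 of the 9 were called. Fkbp5, a chaperone of the glucocorticoid receptor, had 0.68 after chronic and 0.89 after acute morphine.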

How the data were processed

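Striatal RNA of 36 pools of 3 mice was hybridised to Affymetrix Mouse Genome 430 2.0 arrays. The deposited values are linear intensities that the authors had normalized between arrays. Of the summaries named in the study's methods, their scale and shared lowest value of 6.69 point to the dChip model-based index from perfect-match and mismatch probes, which is an inference from the values. This floor holds 3.67% to 4.53% of the probe sets of an array. The number of pools, not a read depth, limits the precision. Other normalizations used in the study were not analysed here.

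Of 45101 probe sets, 64 controls and 1 probe set with 2 missing values were left out, and 27212 with log2 intensity above 6.64 on at least 9 arrays were kept, 22749 of them assigned to 1 gene. The log2 values were fitted with limma 3.58.1 in R 4.3.3, with a mean for each of 12 groups and empirical Bayes moderation, and p-values were adjusted by the Benjamini-Hochberg method over all 27212. Contrasts were averaged over strains with equal weights. Each gene was counted once, by whichever of its detected probe sets had the highest mean. The random block used duplicateCorrelation (statmod 1.5.0), with a consensus correlation of 0.24. The fit was tested on simulated data drawn independently for each array. That test therefore does not cover deviations shared by arrays of the same treatment and number.

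Members and lists were chosen with earlier results of these data known. Arrays or groups were given in full for members past a threshold in a treatment, interaction or within-strain test, or among the 6 of smallest p in the strain test, and the rest by level, range and count. The lists beside the members held other sterol pathway genes, fatty acid synthesis genes, glucocorticoid-induced genes and markers of astrocytes, oligodendrocytes and their precursors, microglia, endothelium, medium spiny neurons, cortical excitatory neurons, choroid plexus and red blood cells. Alternatives changed the normalization, filter, offset, moderation, thresholds, block, array weights and choice of probe set, or left out arrays. Promoters were searched with Python 3.11.15, and figures drawn with matplotlib 3.10.9.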

Additional observations from a re-analysis of the deposited data

How the results depend on the processing

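The numbers of members called were 7 after chronic morphine, 1 after acute morphine, 11 between chronic and acute morphine, 7 by the treatment F-test, 9 by the strain F-test, 0 by the interaction F-test and 3 within single strains. With treatment and number as a random replicate block they were 0 after chronic and 0 after acute morphine, 1 between them and 0 by the treatment F-test. Over all 13224 genes that block gave 63 calls after chronic morphine, 101 after acute morphine and 952 between them. Without it there were 759, 616 and 3122. The block was applied to the other gene lists after their values had been seen. With array weights 17 were called between chronic and acute morphine, 11 by the treatment F-test and 8 within strains. Within strains 1 was called with no filter on signal and 5 with the mean of a gene's probe sets. At thresholds of 0.01 for contrasts and 0.05 for F-tests, 2 were called after chronic morphine, 5 between chronic and acute morphine, 11 by the treatment F-test and 0 within strains. The cause of these shifts was not tested, apart from the thresholds and the filter, which change the test itself.

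Leaving out each of the 36 arrays in turn gave 5 to 9 calls after chronic morphine, 1 to 1 after acute morphine, 8 to 14 between them, 3 to 9 by the treatment F-test, 7 to 10 by the strain F-test, 0 to 0 by the interaction F-test and 0 to 6 within strains. Over the 37 single-gene differences, 1643 of 1813 recomputed values kept their direction and their side of the threshold, 170 were no longer called and 0 changed sign. The dimmest member, Hsd17b7, had a mean log2 intensity of 7.34, against the detection level of 6.64.

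Replicate numbers did not pair the groups: same-numbered arrays of a strain under different treatments had a mean r of 0.03 over 36 pairs, 14 of them above 0.1. With the number as a fixed replicate block the calls were 8 after chronic morphine, 1 after acute morphine, 13 between them, 8 by the treatment F-test, 10 by the strain F-test, 0 by the interaction F-test and 4 within strains.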
